A study of Sus scrofa with 12 samples.

Results

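Genes that brake the cell cycle and the growth-driving MYC genes were followed through the endothelial induction of porcine iPS cells (piPSCs) and in the porcine endothelial cell line AOC. The list held 10 genes, namely the CDK inhibitors CDKN1A, CDKN1B, CDKN1C, CDKN2A, CDKN2B and CDKN2C, the MYC family genes MYC, MYCN and MYCL, and GADD45A. The members were looked up by gene symbol among the 19681 Ensembl pig genes measured in every library, of which 13998 had a symbol. Of the 10 genes, 9 were found. MYCL had no identifier under its symbol and was not analysed here.

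Cyclin-dependent kinases (CDKs) carry a cell from G1 into DNA synthesis and mitosis, and CDK inhibitors hold them back. The CIP/KIP inhibitors p21 (CDKN1A), p27 (CDKN1B) and p57 (CDKN1C) bind several cyclin-CDK complexes, whereas the INK4 inhibitors p16 (CDKN2A), p15 (CDKN2B) and p18 (CDKN2C) bind CDK4 and CDK6 and keep the retinoblastoma protein active. MYC pairs with MAX to switch on genes of growth and ribosome production and is a textbook repressor of CDKN1A and CDKN2B, while p53 activates CDKN1A and GADD45A after stress.

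There were 12 libraries, with replicates A, B and C in each of 4 groups. IEC2, IEC4 and IEC12 were porcine iPS cells on days 2, 4 and 12 of induction, after CHIR99021 (an activator of Wnt signaling), after BMP4, FGF2 and VEGF, and after further culture in EGM-2 medium with VEGF. AOC was a cell line with no induction, so it differed from the IEC groups in origin and culture as well as in cell type. Nothing in the labels ties a letter to a shared culture, and p-values measure only the spread between these libraries. The IEC libraries were not sorted, and a change in a bulk sample may come from more cells that express a gene or from more RNA per cell, which cannot be told apart. Which reprogramming factors the piPSC line carried is not given in the sources used here.

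The levels are FPKM, in which fragments are divided by transcript length and by the fragments of the library. Different genes are set side by side here on that basis. Some genes that dividing cells need were listed near 0 in every library (see CDKN1C below), which limits such comparisons. The number of reads behind the levels is unknown. Summed over all genes, a library held an FPKM of 335976 to 457194, and replicates of a group correlated at Pearson r of 0.967 to 0.992 over log2(FPKM + 1). IEC12 replicate A stood apart, with the lowest of these correlations (against IEC12 replicate C) and with 15.0% of its FPKM sum in 12 mitochondrial genes, compared with 9.78% in IEC12 replicate B, 7.77% in replicate C and 1.95 to 7.10% in the other 9. Of 16 endothelial markers, 13 were found by symbol. Their summed FPKM lay between 356 and 476 for AOC but only between 3.44 and 6.14 for IEC2, between 2.21 and 3.39 for IEC4, and between 0.580 and 0.718 for IEC12. CDH5, the adhesion molecule VE-cadherin, was listed at 0 in all 9 IEC libraries, and all 13 markers were under 1 FPKM in every IEC12 library. PECAM1 (CD31), the marker by which the study sorted cells on day 12, was 91.7 to 131 FPKM in AOC and 0.0197 to 0.105 in IEC12. KDR, the VEGF receptor of endothelial cells and their precursors, was the exception, with 2.45, 3.99 and 2.42 FPKM in IEC2 against 1.32, 1.31 and 1.46 in AOC, and it was at most 0.302 in IEC4 and 0.0374 in IEC12. In IEC12 the markers thus went against the label of induced endothelial cells, and the libraries are called here by their day. In the study, CD31-positive cells emerged later than the days of IEC2 and IEC4. Low markers in those groups therefore do not by themselves go against the labels. Whether the labels are correct was not tested, and every comparison between stages rests on them.

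CDKN1A had the highest listed FPKM of the 6 CDK inhibitors in every IEC library. In IEC2 and IEC4, CDKN1A alone made up 96.1 to 98.0% of the summed FPKM of the 6 CDK inhibitors. In IEC12 it made up 86.6, 88.2 and 96.2% in replicates A, B and C. AOC was shared between CDKN1A, with 36.5 to 50.7% of the sum, and CDKN2A, with 39.7 to 47.2%. CDKN2A was the higher of these genes in AOC replicate C, and CDKN1A was the higher in replicates A and B. The summed FPKM of the 6 inhibitors ran from 264 to 294 for IEC2, from 535 to 692 for IEC4, from 54.3 to 259 for IEC12 and from 359 to 600 for AOC, so that IEC4 lay above IEC2 and IEC12 in every library.

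**Figure D1:**
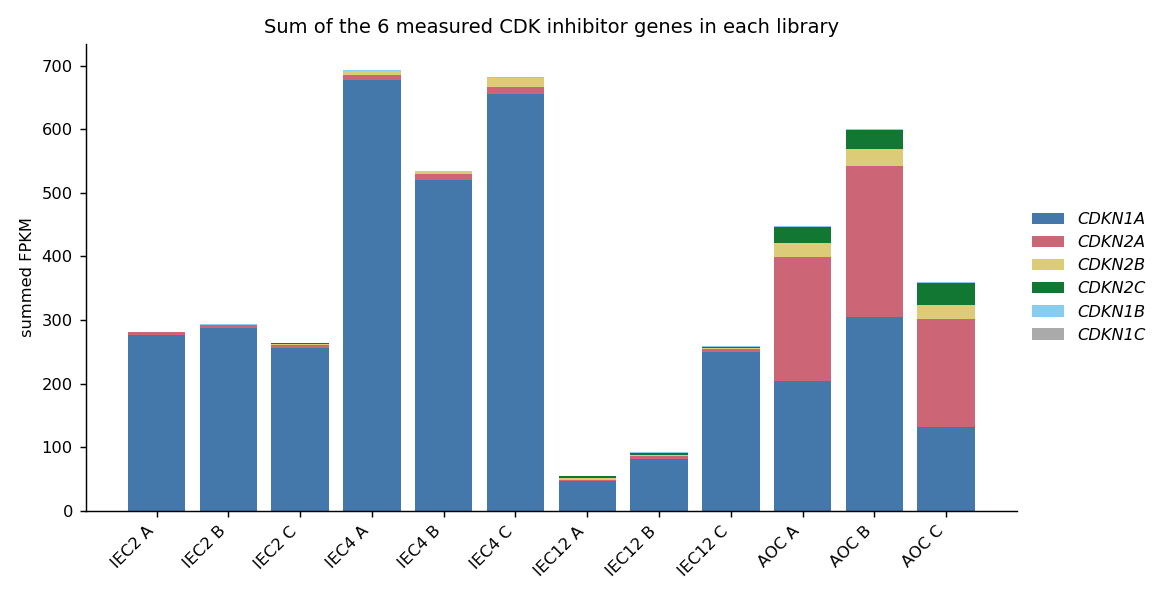
Stacked bars give the FPKM of the 6 measured CDK inhibitor genes in each of the 12 libraries (y axis, summed FPKM from 0; x axis, group and replicate). CDKN1A fills nearly the whole bar in IEC2 and IEC4, the 3 IEC12 bars run from 54.3 to 259, and CDKN2A takes 39.7 to 47.2% of the AOC bars.

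CDKN1A (ENSSSCG00000001565, chromosome 7, 32354776 to 32363771 of Sscrofa11.1 by RefSeq) encodes p21, the p53-induced inhibitor that stops cells in G1. Its FPKM was 276, 288 and 257 in IEC2 replicates A, B and C, 678, 520 and 656 in IEC4, 47.0, 81.1 and 249 in IEC12, and 204, 304 and 131 in AOC. The IEC4 libraries were above all others, and IEC12 lay below IEC2 in every library, with its replicate C close to IEC2. In the order of the means IEC4 came first (618 ± 85.5, SD, n = 3), then IEC2 (273 ± 15.6), AOC (213 ± 86.8) and IEC12 (126 ± 108), and the ranges of IEC2 and AOC, and of AOC and IEC12, overlapped. CDKN1A fell from IEC4 to IEC12 by 2.63 on the log2 scale (SE 0.467, limma adjusted p = 0.00188). Without IEC12 replicate C it fell by 3.29 and without replicate A by 2.10, with adjusted p-values between 2.76e-05 and 0.00971 over all alternatives. The mitochondrial share ran in the opposite order to CDKN1A over the 3 IEC12 libraries, and its part in the result was not tested.

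CDKN1A was 2.26-fold higher in mean FPKM in IEC4 than in IEC2, with no overlap, but this did not pass the test (log2 fold change 1.16, SE 0.467, 95% interval 0.12 to 2.21, adjusted p = 0.0768). The spread was shared with the uneven IEC12 libraries in that fit, and a fit of IEC2 and IEC4 alone gave an adjusted p of 0.000382. Over all alternatives the adjusted p ran from 0.000382 to 0.171. Between IEC2 and IEC12 the fall was 1.46 on the log2 scale (SE 0.467, adjusted p = 0.0294), and this call was near the limit. Without IEC12 replicate C the fall was 2.13. The call was lost without IEC12 replicate A (fall of 0.94, adjusted p = 0.0675) and without IEC12 replicate B (0.0915). It was also lost without each IEC2 replicate (0.0667 to 0.0784), although these lay close together (257 to 288 FPKM). A library left out also leaves fewer libraries to estimate the spread. With no filter (0.0771) and with only these groups in the fit (0.0606) the call was lost as well. The adjusted p ran from 0.000121 to 0.0915 over all alternatives. Against AOC, CDKN1A was lower in AOC than in IEC4 (log2 fold change -1.60, SE 0.473, adjusted p = 0.00999), while the differences from IEC2 (-0.44, 95% interval -1.48 to 0.60) and from IEC12 (1.02, -0.01 to 2.06) did not pass the test. The AOC-IEC12 difference passed with the median-of-ratios scaling (adjusted p = 0.0188), without IEC12 replicate C (log2 fold change 1.69, adjusted p = 0.000753) and without AOC replicate C (adjusted p = 0.05, just under the limit), and was 0.50 without IEC12 replicate A, in a range of adjusted p-values up to 0.318.

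**Figure D2:**
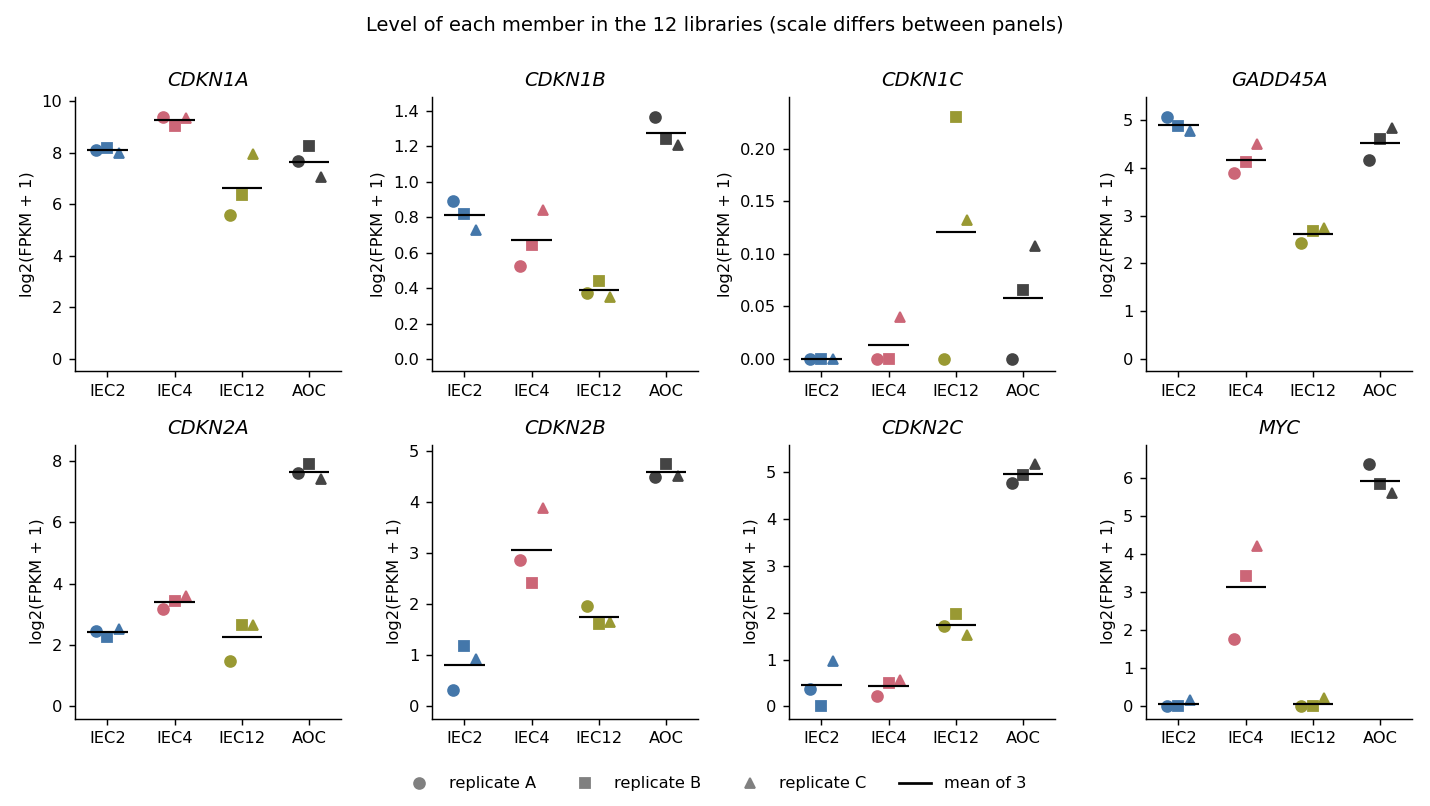
Each panel gives log2(FPKM + 1) of a member (y axis, scale differing between panels) in the 4 groups (x axis), with a point per library shaped by replicate and a line at the mean of 3. CDKN1A and MYC lie higher in IEC4 than in the other IEC groups, CDKN2A, CDKN2B, CDKN2C and MYC lie highest in AOC, and CDKN1C is at most 0.173 FPKM in every library.

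CDKN1B (ENSSSCG00000037144, chromosome 5, 59731224 to 59735831) encodes p27, the inhibitor that accumulates in resting cells and is destroyed through SKP2. It was listed at 0.857, 0.765 and 0.659 FPKM in IEC2, 0.437, 0.558 and 0.793 in IEC4, 0.296, 0.355 and 0.273 in IEC12 and 1.58, 1.36 and 1.31 in AOC. AOC lay above every IEC library, IEC2 and IEC4 overlapped, and IEC12 lay below both. CDKN1B passed the filter on low values (3 or more libraries of the fit at 1 FPKM or above) only through AOC, so that some difference from AOC was built in. It was higher in AOC than in IEC2 by 0.46 (SE 0.127, adjusted p = 0.00764), than in IEC4 by 0.60 (adjusted p = 0.00124) and than in IEC12 by 0.88 (adjusted p = 8.82e-05) on the log2(FPKM + 1) scale, which understates the change of so low a gene. With libraries scaled to equal totals the difference from IEC2 was 0.29 and did not pass (adjusted p = 0.0639, in a range of 0.00149 to 0.0639 over the alternatives). The stages could be compared for CDKN1B only without the filter, where it fell by 0.43 from IEC2 to IEC12 (SE 0.103, adjusted p = 0.0195). In that fit the differences between IEC2 and IEC4 (-0.15, adjusted p = 0.377) and between IEC4 and IEC12 (-0.28, adjusted p = 0.0819) did not pass.

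CDKN1C (ENSSSCG00000040461, chromosome 2, 2019391 to 2022092), the imprinted gene of p57, was at or near 0 throughout. It was listed at 0 in all IEC2 libraries, in IEC4 replicates A and B, in IEC12 replicate A and in AOC replicate A, and its highest value was 0.173 FPKM, in IEC12 replicate B. It was under the filter and did not pass in any comparison of the fit without a filter. Values this low are hard to read in these files. The DNA repair enzyme gene APEX1, the nucleolar gene NOP56 and the cyclin E partner CDK2, which dividing cells need and which were singled out here after their values were seen, had at most 0.0366, 0.292 and 0.0678 FPKM in any of the 12 libraries. A gene listed near 0 in every library may therefore be a failed estimate, and this bears on CDKN1C and MYCN. It may also bear on CDKN1B, which was listed at only 0.273 to 1.58 FPKM over the 12 libraries.

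CDKN2A (ENSSSCG00000005134) encodes the INK4 inhibitor p16 and, from another reading frame, the p53-stabilising protein ARF. Values per gene cannot separate the transcripts of the 2 proteins, and the RefSeq table had no entry under the symbol CDKN2A. Its FPKM was 195, 238 and 170 in AOC, 4.48, 3.84 and 4.71 in IEC2, 7.97, 9.85 and 11.2 in IEC4, and 1.82, 5.36 and 5.31 in IEC12. AOC lay far above all IEC libraries, IEC4 lay above IEC2 and IEC12 without overlap, and IEC2 and IEC12 overlapped. The mean in AOC (201 ± 34.7, SD, n = 3) was 46.2-fold that in IEC2 (4.34 ± 0.449), 20.8-fold that in IEC4 (9.67 ± 1.62) and 48.2-fold that in IEC12 (4.17 ± 2.03). The log2 fold changes of AOC were 5.23 against IEC2 (SE 0.277, adjusted p = 1.77e-08), 4.24 against IEC4 (adjusted p = 1.20e-07) and 5.37 against IEC12 (adjusted p = 1.64e-08).

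Between stages, CDKN2A rose by 0.99 on the log2 scale from IEC2 to IEC4 (SE 0.301, adjusted p = 0.0278) and fell by 1.13 from IEC4 to IEC12 (adjusted p = 0.0138). The rise was near the limit. It did not pass in a fit without the filter (adjusted p = 0.0574) nor with 5 of the 6 libraries left out in turn (0.0553 to 0.0838), and it passed without IEC4 replicate A. The fall remained past the test in every alternative, but it was 0.74 without IEC12 replicate A, the library with the lowest value. IEC12 and IEC2 differed by -0.14 (95% interval -0.81 to 0.53), which did not pass.

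CDKN2B (ENSSSCG00000034120, chromosome 1, 200666250 to 200770880) encodes p15, the INK4 inhibitor that TGF-β is known to induce, and lies beside CDKN2A in mammals. This RefSeq span is 104631 bases, against at most 8996 for the other members placed, and whether it takes in neighbouring genes was not tested. The FPKM of CDKN2B was 0.256, 1.26 and 0.900 in IEC2, 6.28, 4.37 and 13.8 in IEC4, 2.89, 2.08 and 2.17 in IEC12, and 21.5, 26.0 and 21.9 in AOC. The 4 groups did not overlap, in the order AOC (23.1 ± 2.44, SD, n = 3), IEC4 (8.15 ± 4.99), IEC12 (2.38 ± 0.446) and IEC2 (0.805 ± 0.509). CDKN2B rose from IEC2 to IEC4 by 2.25 on the log2 scale (SE 0.36, adjusted p = 0.00116) and fell from IEC4 to IEC12 by 1.31 (SE 0.36, adjusted p = 0.0158). The fall did not pass without IEC12 replicate B (adjusted p = 0.0523, in a range of 0.00864 to 0.0523 over the alternatives). IEC12 was 0.94 above IEC2 (95% interval 0.13 to 1.75, adjusted p = 0.0591), which passed with a pseudocount of 0.1 (adjusted p = 0.0348), with only these groups in the fit (0.0211) and with the median-of-ratios scaling (0.0495), in a range up to 0.179. AOC was higher than IEC2 by 3.78, than IEC4 by 1.53 and than IEC12 by 2.84, with adjusted p-values of 1.05e-06, 0.00137 and 1.43e-05.

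The 2 neighbouring INK4 genes kept no fixed ratio. The FPKM of CDKN2A was 7.73 to 9.18 times that of CDKN2B in AOC and 3.05 to 17.5 times in IEC2. It was 0.812 to 2.26 times in IEC4 and 0.631 to 2.58 times in IEC12, with CDKN2B above CDKN2A in IEC4 replicate C and in IEC12 replicate A.

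CDKN2C (ENSSSCG00000003876, chromosome 6, 161160290 to 161166681) encodes p18, an INK4 inhibitor expressed during the differentiation of many tissues. Its FPKM was 0.301, 0.0137 and 0.958 in IEC2, 0.169, 0.409 and 0.482 in IEC4, 2.26, 2.91 and 1.86 in IEC12, and 26.3, 29.8 and 35.0 in AOC. It followed another course than CDKN1A, CDKN2A and CDKN2B, since IEC12 lay above IEC2 and IEC4 in every library and IEC2 and IEC4 overlapped. In the fit of the IEC libraries it passed the filter only through IEC12, so that a difference of IEC12 was built in. CDKN2C rose from IEC4 to IEC12 by 1.30 (SE 0.25, adjusted p = 0.00286) and was 1.27 higher in IEC12 than in IEC2 (adjusted p = 0.00288), while IEC4 and IEC2 differed by -0.03 (95% interval -0.59 to 0.53). The mean in AOC (30.4 ± 4.40, SD, n = 3) was 71.6-fold that in IEC2, 86.0-fold that in IEC4 and 12.9-fold that in IEC12, and the log2 fold changes were 4.50 (adjusted p = 1.60e-08), 4.53 (1.91e-08) and 3.23 (3.23e-07).

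MYC (ENSSSCG00000005965, chromosome 4, 12455141 to 12460360) was on in IEC4 and AOC and near 0 in the other groups. Its FPKM was 0, 0 and 0.131 in IEC2, 2.40, 9.64 and 17.5 in IEC4, 0, 0 and 0.160 in IEC12, and 80.8, 55.4 and 47.2 in AOC. IEC4 lay above every IEC2 and IEC12 library and below every AOC library, but its own replicates spread 7.29-fold. MYC passed the filter in the IEC libraries only through IEC4, so that it had to differ there. It rose from IEC2 to IEC4 by 3.07 (SE 0.487, 95% interval 1.98 to 4.16, adjusted p = 0.0011) and fell from IEC4 to IEC12 by 3.06 (SE 0.487, adjusted p = 0.00109). These sizes depend on the pseudocount, since the lower groups are listed at or near 0, and with a pseudocount of 0.1 they were 5.83 and -5.78. Without IEC4 replicate A, the lowest of the IEC4 libraries, they were 3.75 and -3.74. IEC12 and IEC2 differed by 0.01 (95% interval -1.08 to 1.10).

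In AOC, MYC had a mean of 61.1 FPKM (SD 17.5, n = 3), 6.21-fold that in IEC4 (9.85, SD 7.56). The log2 fold changes of AOC were 5.86 against IEC2 (SE 0.463, adjusted p = 4.81e-07), 2.79 against IEC4 (adjusted p = 0.000219) and 5.85 against IEC12 (adjusted p = 6.44e-07). Without IEC4 replicate A the difference from IEC4 was 2.11. MYC and CDKN1A were both at their IEC maximum in IEC4. Within IEC4, the replicate with the least MYC (A) had the most CDKN1A, while replicate C, with the most MYC, had nearly as much.

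Markers of epithelial cells, like MYC, were highest in IEC4 among the IEC groups. The summed FPKM of the 5 epithelial markers found of 6 was 334, 480 and 884 in IEC4 replicates A, B and C, in the same order as MYC, and 13.7 to 21.7 in IEC2, 4.70 to 16.2 in IEC12 and 0.807 to 1.03 in AOC. Most of this sum was the keratin KRT8, with 300, 435 and 748 FPKM in the IEC4 replicates. In AOC, where MYC was highest, CDH1 (E-cadherin) was listed at 0 in every library. CDKN2A, GADD45A, CDKN1B and CDKN2C had the same order over the IEC4 replicates. So had the FPKM sum over all genes (348674, 355064 and 379368) and the mitochondrial share (4.28, 5.11 and 7.10%). The order is thus not particular to MYC and these markers. CDKN2B was also highest in IEC4 replicate C, where the epithelial sum was highest, but lowest in replicate B. The 6 mural and smooth muscle markers summed to 28.5, 9.38 and 9.38 FPKM in IEC4 replicates A, B and C. The sum was 0.190 to 0.536 for IEC2, 0.914 to 2.01 for IEC12 and 4.73 to 12.9 for AOC. IEC4 was thus highest among the IEC groups but overlapped AOC. Of the 6 markers, 4 were under 1 FPKM in every IEC4 library. RGS5, a marker of pericytes, made up most of the sum in IEC4 replicates A and B (24.6 and 7.60 FPKM, and 3.93 in replicate C). IEC4 replicate A had the highest mural sum and the highest CDKN1A. The part of epithelial-marker or mural-marker cells in these results was not tested. The 5 fibroblast markers summed to 84.9 to 115 FPKM for IEC2, 47.0 to 57.4 for IEC4, 62.1 to 79.7 for IEC12 and 5.18 to 8.07 for AOC, most of it the collagen COL3A1 in the IEC libraries. The 3 pluripotency markers found of 8 summed to 0 to 0.188 FPKM for IEC2, 3.30 to 6.39 for IEC4, 0.343 to 1.56 for IEC12 and 0 to 0.0462 for AOC. In IEC4, 2 of the 3 were under 1 FPKM in every library. Why their sum was higher on day 4 than on day 2 was not tested. No library exceeded a sum of 4.98 for leukocyte, 2.28 for endoderm, 0.704 for cardiac and 0.508 for mesoderm markers.

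MYCN (ENSSSCG00000008618, chromosome 3, 121543201 to 121549678), the MYC family gene best known from neural and embryonic tissue, was listed at 0 in 11 libraries and at 0.00962 FPKM in IEC4 replicate C. It was under the filter, and no statement on its direction was possible.

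GADD45A (ENSSSCG00000037066, chromosome 6, 144940702 to 144944089) encodes a p53-inducible stress protein that binds p21 and PCNA. Its FPKM was 32.7, 28.4 and 26.2 in IEC2, 13.7, 16.4 and 21.5 in IEC4, 4.40, 5.37 and 5.67 in IEC12, and 16.8, 23.4 and 27.3 in AOC. The 3 stages did not overlap and went down with the day, whereas AOC overlapped both IEC2 and IEC4. The means were 29.1 ± 3.27 (SD, n = 3) in IEC2, 17.2 ± 3.97 in IEC4, 5.15 ± 0.664 in IEC12 and 22.5 ± 5.31 in AOC. GADD45A fell by 0.74 on the log2 scale from IEC2 to IEC4 (SE 0.185, adjusted p = 0.0116) and by 1.55 from IEC4 to IEC12 (adjusted p = 0.000241). Over the whole course it fell by 2.29 (SE 0.185, 95% interval -2.71 to -1.88, adjusted p = 1.62e-05), and every alternative kept these 3 calls.

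AOC was above IEC12 in GADD45A by 1.91 (SE 0.199, adjusted p = 6.25e-06). Its differences from IEC2 (-0.38, 95% interval -0.81 to 0.06) and from IEC4 (0.36, -0.07 to 0.80) did not pass. The former passed with equal totals (-0.70, adjusted p = 0.00863, in a range up to 0.574). The latter passed with the median-of-ratios scaling (0.83, adjusted p = 0.00425), without IEC4 replicate C (0.53, 0.0376) and without AOC replicate A (0.55, 0.0296), in a range up to 0.617. CDKN1A and GADD45A, both p53-responsive genes, thus had values in opposite directions from IEC2 to IEC4, although only GADD45A passed the test there.

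**Figure D3:**
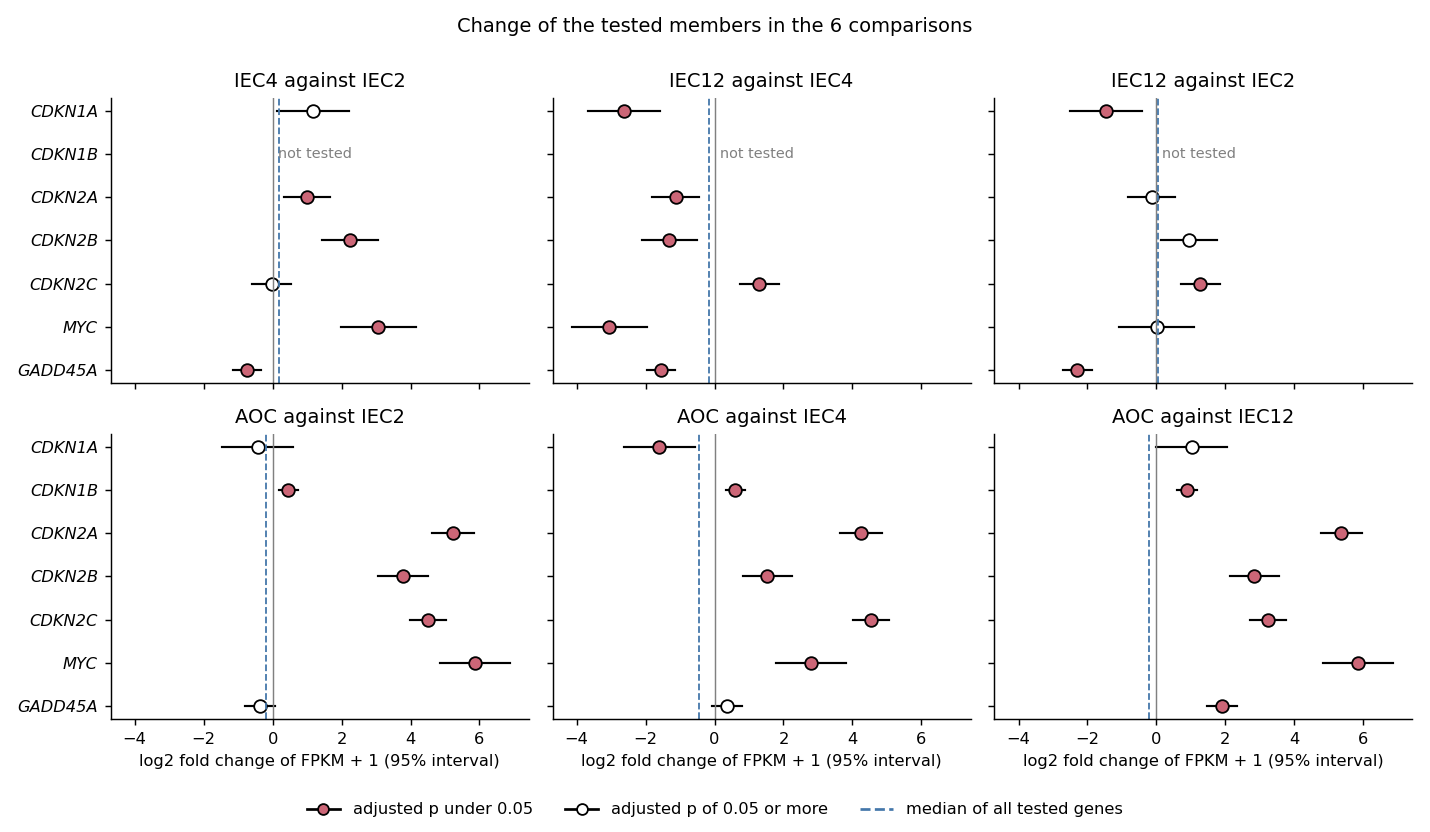
Points give the log2 fold change of FPKM + 1 with its 95% interval (x axis) for the 7 members tested in any of the 6 comparisons (y axis), filled where the limma adjusted p was under 0.05, and a dashed line gives the median of all tested genes. From IEC4 to IEC12 5 members lie to the left of 0 and CDKN2C to the right, and CDKN2A, CDKN2B, CDKN2C and MYC lie to the right in all AOC panels.

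Counted over the members, the step from IEC4 to IEC12 was mostly downward. Of the 10 genes 6 were tested between stages, and the counts are a description, since MYC and CDKN2C were tested only because 1 stage was high. From IEC2 to IEC4, 3 of the 6 rose (CDKN2A, CDKN2B and MYC) and 1 fell (GADD45A), when 24.8% of all 10542 tested genes rose and 12.5% fell. From IEC4 to IEC12, 5 fell (CDKN1A, CDKN2A, CDKN2B, MYC and GADD45A) and 1 rose (CDKN2C), when 26.9% of all genes fell and 17.3% rose. Between IEC2 and IEC12, CDKN2C was higher and CDKN1A and GADD45A were lower in IEC12, against 24.2% and 19.3% of all genes. None of the 6 passed the study's own limits (p and adjusted p under 0.001, absolute log2 fold change above 3) in these comparisons, which 1.18%, 0.939% and 1.22% of all genes passed. MYC exceeded 3 on the log2 scale at both steps but missed the limit on the adjusted p.

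Against AOC, 7 members were tested, CDKN1B only because AOC was high. AOC was higher than IEC2 in 5 of them and lower in 0, when 26.7% of all 11053 tested genes were higher and 37.1% lower. The 2 that did not pass were CDKN1A and GADD45A. AOC was higher than IEC4 in 5 and lower in 1 (CDKN1A), when 22.1% of all genes were higher and 47% lower. AOC was higher than IEC12 in 6 and lower in 0, with CDKN1A not passing, when 22.4% and 36.2% of all genes were higher and lower. The study's limits were passed by 4 members against IEC2 (CDKN2A, CDKN2B, CDKN2C and MYC), 2 against IEC4 (CDKN2A and CDKN2C) and 3 against IEC12 (CDKN2A, CDKN2C and MYC), and by 5.47%, 5.17% and 4.41% of all genes. These counts depend on the pseudocount, since CDKN2B was 2.84 higher in AOC than in IEC12 in the main fit and 3.24 with a pseudocount of 0.1. The 3 AOC comparisons share the AOC libraries, and their counts are not independent.

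The median gene itself moved on the deposited scale, by 0.20, -0.15 and 0.03 in the 3 stage comparisons in the order above and by -0.20, -0.45 and -0.21 in those of AOC with IEC2, IEC4 and IEC12. Read against these medians, CDKN1A was 0.97 higher in IEC4 than in IEC2 and 2.48 lower in IEC12 than in IEC4, MYC was 2.87 higher and 2.91 lower, and GADD45A was 0.94 lower and 1.40 lower. The split of all calls moved with the scaling. The share of calls that were higher from IEC2 to IEC4 was 66.5% as deposited, 51.7% with the median of ratios and 60.6% with equal totals, and from IEC4 to IEC12 it was 39.2%, 49.2% and 25.9%. From IEC2 to IEC12 it was 55.7%, 51.7% and 36.8%. For AOC it was 41.9%, 49.8% and 31.5% against IEC2, 32.0%, 48.5% and 24.6% against IEC4, and 38.2%, 50.6% and 36.4% against IEC12. No called member changed direction under either scaling.

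The genes that the inhibitors act on were counted next, and each list count below stands against 24.8% of all tested genes rising and 12.5% falling from IEC2 to IEC4 (the first step), and 17.3% rising and 26.9% falling from IEC4 to IEC12 (the second step). Of 17 tested G1 cyclins, CDKs, pocket proteins and E2Fs, 4 rose and 1 fell from IEC2 to IEC4 (median log2 fold change 0.46), and 4 rose and 4 fell from IEC4 to IEC12 (0.11), counts near those shares. CCND1, the cyclin D1 partner of CDK4 and CDK6, had 0.246, 0.183 and 0.765 FPKM in IEC2, 5.95, 7.33 and 10.3 in IEC4, 0.749, 1.63 and 1.69 in IEC12, and 81.5, 117 and 106 in AOC. It thus had its IEC maximum in IEC4 and its overall maximum in AOC, the order also seen for MYC and CDKN2B, and it rose from IEC2 to IEC4 by 2.66 (SE 0.263, adjusted p = 7.25e-05). Without IEC4 it would not have passed the filter among the IEC libraries. CCND3, which encodes cyclin D3, fell from IEC4 to IEC12 by 1.78 (SE 0.563, adjusted p = 0.0284), from 57.6, 47.3 and 53.2 to 4.40, 20.4 and 31.7 FPKM, with IEC12 replicate A again the lowest. CDK4 did not pass the test at either step (log2 fold changes 0.46 and -0.09).

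S phase and mitosis genes mostly rose from IEC4 to IEC12, the step at which CDKN1A fell. Only 9 of the 16 listed were found, all of them tested. From IEC2 to IEC4 0 rose and 3 fell (median -0.20), and from IEC4 to IEC12 7 rose and 0 fell (median 0.74, against -0.15 for all genes). CCNB1, the mitotic cyclin B1, had 30.1, 31.8 and 30.0 FPKM in IEC4 and 113, 114 and 103 in IEC12 (log2 fold change 1.81, SE 0.106, adjusted p = 5.56e-06). Its kinase partner CDK1 had 10.5, 11.8 and 15.4 in IEC4 and 42.2, 43.1 and 37.5 in IEC12 (log2 fold change 1.64, SE 0.186, adjusted p = 0.000179). The count of 7 that rose was 7 without IEC12 replicate A and 7 with the median of ratios, and 4 with equal totals.

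**Figure D4:**
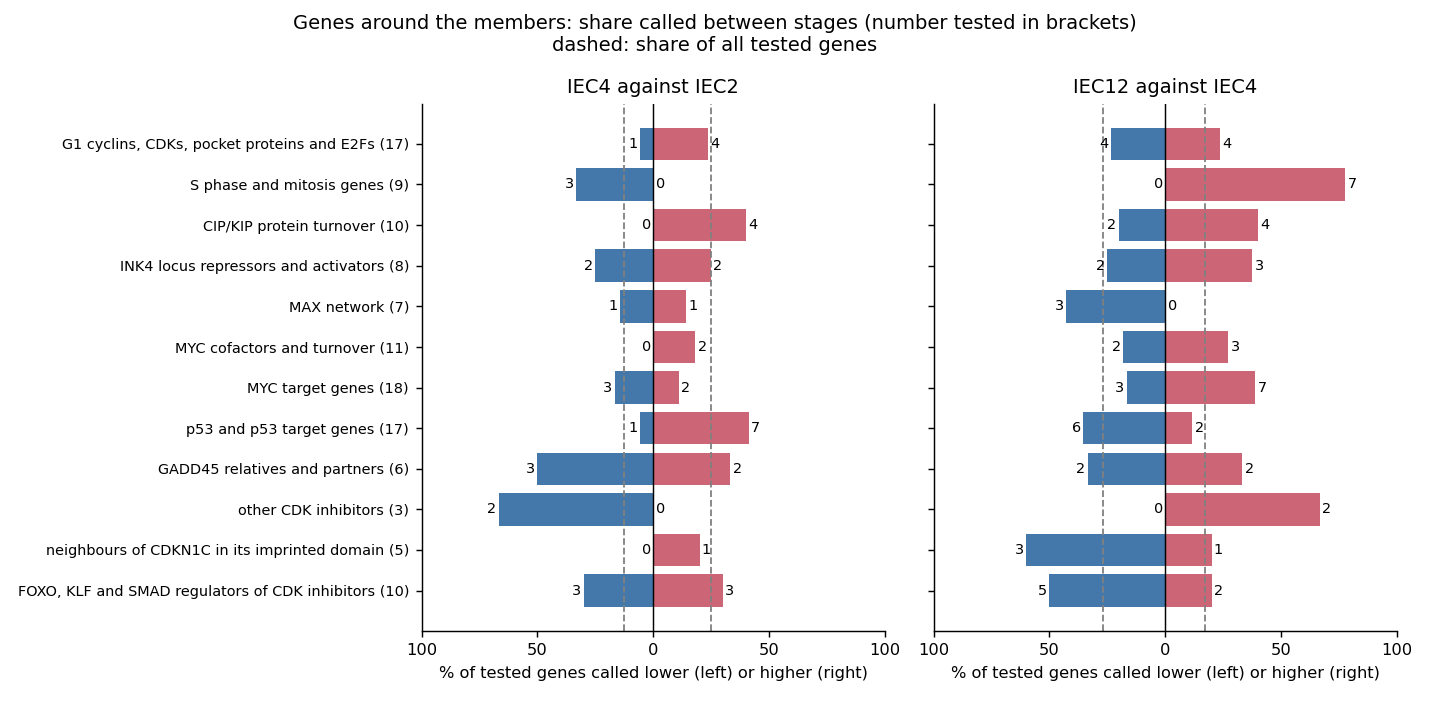
Bars give the share of tested genes of each list called higher (right) or lower (left) between stages (x axis, percent; number of genes beside each bar), with dashed lines at the share of all tested genes. S phase and mitosis genes had 7 of 9 called higher from IEC4 to IEC12, and the p53 list had 7 of 17 called higher from IEC2 to IEC4 and 6 called lower from IEC4 to IEC12.

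Genes that control the level of the inhibitors changed in both directions. Of 10 tested genes for the turnover of CIP/KIP proteins, 4 rose and 0 fell from IEC2 to IEC4 (median 0.50), and 4 rose and 2 fell from IEC4 to IEC12 (0.01). CUL4A, a scaffold of the ubiquitin ligase that degrades p21 in S phase, rose at the first step by 1.30 (SE 0.295, adjusted p = 0.00745), and DDB1, the adaptor of the same ligase, fell at the second step (log2 fold change -2.11, SE 0.451, adjusted p = 0.00486). DDB1 had 2.72, 7.75 and 16.8 FPKM in IEC12 replicates A, B and C, lowest in the library that stood apart. Of 8 tested repressors and activators of the INK4 locus, 2 rose and 2 fell at the first step (median 0.19) and 3 rose and 2 fell at the second (0.25). EZH2, the Polycomb methyltransferase that silences CDKN2A, rose from IEC4 to IEC12 by 1.48 (SE 0.221, adjusted p = 0.000783), and ETS2, an activator of CDKN2A, fell by 1.40 (SE 0.178, adjusted p = 0.000331). ETS2 was tested only because IEC4 was high (1.41 to 2.40 FPKM), so that its fall was built in. Of 10 tested FOXO, KLF and SMAD regulators, 3 rose and 3 fell at the first step (0.32), and 2 rose and 5 fell at the second (-0.60). KLF6, an activator of CDKN1A, fell at the second step (log2 fold change -2.33, SE 0.431, adjusted p = 0.0023), and TGFB2, a ligand of the TGF-β pathway, fell by 2.45 (SE 0.393, adjusted p = 0.00113). TGFB2 had 5.10, 9.94 and 21.0 FPKM in IEC4 replicates A, B and C, in the same order as MYC and as the FPKM sums of these libraries. KLF6 had 0.668, 2.36 and 4.11 in IEC12, again lowest in replicate A.

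The p53 list contains the pathway upstream of CDKN1A and GADD45A. Of its 17 tested genes, 7 rose and 1 fell from IEC2 to IEC4, and 2 rose and 6 fell from IEC4 to IEC12 (medians 0.25 and -0.36). The share that fell at the second step was near that of all genes. TIGAR, a regulator of sugar metabolism, rose at the first step by 1.66 (SE 0.239, adjusted p = 0.00064). SESN2, the stress sensor sestrin 2, fell at the second step (log2 fold change -3.38, SE 0.316, adjusted p = 7.17e-05). MDM2, the p53 antagonist and target, was singled out after its values were seen, because it had the course of CDKN1A over the IEC groups. It rose by 0.62 (SE 0.185, adjusted p = 0.0256) and then fell by 1.07 (SE 0.185, adjusted p = 0.00163). SESN1 and TP53INP1 of the same list, also named after their values were seen, went the other way at the second step. Mean FPKM in IEC2, IEC4 and IEC12 was 12.0, 22.1 and 69.8 for SESN1 and 3.74, 8.78 and 22.9 for TP53INP1.

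Among 6 tested relatives and partners of GADD45A, 2 rose and 3 fell from IEC2 to IEC4 (median -0.29), and 2 rose and 2 fell from IEC4 to IEC12 (-0.13). ATF3, a stress-induced transcription factor, fell at the second step (log2 fold change -2.66, SE 0.206, adjusted p = 2.63e-05) and had the downward order of GADD45A, with 141 to 179 FPKM for IEC2, 32.1 to 36.2 for IEC4, then 2.93 to 6.05 for IEC12. MAP2K6, a kinase upstream of p38, rose at the first step by 2.70 (SE 0.21, adjusted p = 2.16e-05). The paralog GADD45B, named after its values were seen, went the other way from GADD45A at the first step, with 2.66 to 5.27 FPKM in IEC2 and 11.8 to 27.3 in IEC4 (log2 fold change 1.91, SE 0.359, adjusted p = 0.00277).

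Genes of the network around MYC passed the test at the second step about as often as all genes. Of 7 tested genes of the MAX network, 1 rose and 1 fell from IEC2 to IEC4 (median -0.15), and 0 rose and 3 fell from IEC4 to IEC12 (-0.48). MXI1, a MAX partner that opposes MYC, fell at the first step (log2 fold change -0.995, SE 0.241, adjusted p = 0.00996), and MXD1, of the same class, fell at the second step (log2 fold change -1.37, SE 0.304, adjusted p = 0.00574). In AOC, where MYC was highest, 0 of the 7 were higher than in IEC4 and 6 were lower, when 47% of all genes were lower. With the median of ratios 4 were lower, against 33.9% of all genes, and with equal totals 6 were lower, against 53.7%. MXI1 was 0.808 to 1.68 FPKM in AOC and 12.0 to 44.8 in the IEC libraries. Of 11 tested MYC cofactors and turnover genes, 2 rose and 0 fell at the first step (median 0.35), and 3 rose and 2 fell at the second (0.19). TRIB3, a stress-induced pseudokinase, fell from IEC4 to IEC12 by 5.79 (SE 0.3, adjusted p = 4.88e-06).

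Known MYC target genes changed in both directions. Of 18 tested, 2 rose and 3 fell from IEC2 to IEC4 (median -0.03), while MYC rose, and 7 rose and 3 fell from IEC4 to IEC12 (-0.05), while MYC fell. The mitochondrial chaperonin HSPE1 rose at the second step by 1.71 (SE 0.261, adjusted p = 0.000889), and RRP9, a ribosomal RNA processing gene, fell by 1.70 (SE 0.515, adjusted p = 0.0239). The values of HSPE1 in IEC12 replicates A, B and C were 1473, 1004 and 744 FPKM and those of RRP9 6.88, 27.3 and 34.6, so that both departed most from IEC4 in the library with the highest mitochondrial share, whose part in these results was not tested.

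The remaining lists were short. Of 3 tested other CDK inhibitors, 0 rose and 2 fell from IEC2 to IEC4 and 2 rose and 0 fell from IEC4 to IEC12 (medians -0.83 and 0.62). CDKN2D, the INK4 inhibitor p19, fell at the first step (log2 fold change -0.82, SE 0.219, adjusted p = 0.0153), from 12.4 to 19.5 FPKM in IEC2 to 7.63 to 8.64 in IEC4. CDKN3, a phosphatase of CDKs, fell by 0.89 (SE 0.187, adjusted p = 0.00491). Of 5 tested neighbours of CDKN1C in its imprinted domain, 1 rose and 0 fell at the first step (median 0.13) and 1 rose and 3 fell at the second (-1.68). SLC22A18 rose at the first step by 1.84 (SE 0.169, adjusted p = 4.72e-05), but it was tested only because IEC4 was high (2.28 to 3.39 FPKM), so that a difference was built in. CARS1, the gene of cysteinyl-tRNA synthetase, fell at the second step (log2 fold change -2.39, SE 0.522, adjusted p = 0.00536), and was 1.26, 6.002 and 8.55 FPKM in IEC12 replicates A, B and C.

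Several list counts depended on the scaling or on IEC12 replicate A. At the second step, with equal totals, the MYC targets had 4 higher and 4 lower and the GADD45A partners 0 and 2, and without IEC12 replicate A the p53 list had 2 higher and 4 lower and the G1 list 6 and 3. At the first step the p53 list had 6 higher and 2 lower with the median of ratios and 5 and 1 with equal totals. The CIP/KIP turnover list had 2 higher and 1 lower with the median of ratios and 2 and 0 with equal totals there, and the G1 list 2 and 1 with either scaling. The median of the MYC targets at the second step was 0.13 with the median of ratios and 0.24 without IEC12 replicate A, and that of the G1 list was -0.10 with equal totals.

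The genes most alike to each tested member over the 12 libraries were found by Pearson r of log2(FPKM + 1) among 9158 genes, as a description only, because the 3 libraries of a group share their stage and all members but CDKN1A and GADD45A have a gap between AOC and IEC. CDKN1A was most like SAMHD1 (r = 0.958), HPS1 (0.954) and STXBP2 (0.95), and CDKN1B most like HSD17B7 (0.970), MTPN (0.966) and DUSP3 (0.962). CDKN2A was most like CAPG (0.996), CIART (0.993) and CHCHD3 (0.992). CDKN2B was most like TPM1 (0.982), IFI6 (0.979) and CALD1 (0.974), of which TPM1 and CALD1 encode actin-binding proteins. CDKN2C was most like GPATCH4 (0.993), DNAJB4 (0.990) and HAPLN4 (0.989), and MYC most like ANKRD1 (0.989), CTSC (0.986) and NID2 (0.985). GADD45A was most like HABP4 (0.962), DNAJC3 (0.960) and HERPUD1 (0.959), the last 2 of which serve protein quality control in the endoplasmic reticulum.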

How the data were processed

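RNA was amplified by the Smart-Seq2 protocol and sequenced on 12 libraries, 3 in each of 4 groups, assigned with their replicate letters from the sample titles. The reads were processed with Galaxy by the authors, who deposited gene-level FPKM for each library. The submitters' processing notes name Bowtie2 2.2.3, TopHat2 2.0.12, Cufflinks 2.2.1 and susScr11 (Sscrofa11.1). Strandedness is not given in the sources used here, so antisense transcripts could not be separated. Read numbers are unknown, and the relative depth estimated from 1927 low genes was 0.668 to 1.23 (for IEC12 replicate A 0.668 or 1.335, which could not be decided).

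limma 3.58.1 (R 4.3.3; lmFit, contrasts.fit, eBayes with trend) was run on log2(FPKM + 1). Tested genes reached 1 FPKM in 3 or more of the fitted libraries, 10542 between stages (9 IEC libraries) and 11053 for AOC (12 libraries), and Benjamini-Hochberg adjusted p under 0.05 was a call. The script was tested on simulated data. Levels and figures used Python 3.11.15, pandas 2.3.3 and matplotlib 3.10.9. Symbols came from a table of gene names, and coordinates from RefSeq.

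The members, the 12 gene lists and the marker lists were chosen with earlier results of these data known. All members are named, with the 2 called genes of largest change between consecutive stages from each list and the 3 genes most correlated with each tested member. Genes named outside this rule are marked, except CDK4 and the single cell type markers, which are named outside it without a mark. A gene under this rule is not reported here. Alternatives were a pseudocount of 0.1, no filter, only the groups compared, a replicate block, 2 other scalings, an untrended variance, the study's limits, and each library left out.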

Additional observations from a re-analysis of the deposited data

How the results depend on the processing

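Over 39 changes of members and 505 alternatives, 472 kept direction and side of the threshold, 15 lost the call, 11 gained it and 7 reversed. The 7 reversals were of changes that were never called. CDKN2C from IEC2 to IEC4 was 0.24 with a pseudocount of 0.1 and ran from -0.25 to 0.23 with a library left out. With a library left out, CDKN2A from IEC2 to IEC12 ran from -0.34 to 0.25 and MYC from -0.059 to 0.0716. By the study's limits the members called numbered 0, 0 and 0 between stages (IEC4 against IEC2, IEC12 against IEC4, IEC12 against IEC2) and 4, 2 and 3 for AOC against IEC2, IEC4 and IEC12, in place of 4, 6, 3, 5, 6 and 6. These lower counts follow from the stricter limits, which are not among the 505 alternatives that gave the 15 lost calls. With a library left out the count for IEC12 against IEC2 was 2 to 3. For MYC and CDKN2C, some comparisons could not be fitted with only the groups compared, since the filter removed them.

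The letters A, B and C of 2 groups deviated together in 2 of 18 pairs (correlation above 0.1, range -0.514 to 0.246). These were replicates A and C of IEC2 and IEC12 (0.246 and 0.201). Such correlations cannot show whether equal letters share a culture or batch. With the replicate block the members called numbered 4, 6, 3, 5, 6 and 6, as without it.

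Read depth is unknown, and no counting interval is given for the low values of CDKN1B, CDKN1C, CDKN2C and MYCN.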
